A study of Mus musculus with 24 samples.

Results

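The transcripts of 44 genes of DNA replication and mitosis were followed in spermatogonia of the mouse testis at P7 (postnatal day 7). The genes were chosen by name, 24 that act in S phase and 20 that act in mitosis, and all 44 were listed and tested among 23177 listed genes in the Zbtb16 table and among 21688 in the Sox3 table. Each table held 12 RNA-seq libraries in 4 groups of 3, by genotype and cell fraction, which makes 24 libraries in 8 groups. Cells were sorted with magnetic beads into undifferentiated spermatogonia (uSPG), taken as THY1+, and differentiating ones (dSPG), taken as KIT+. In the Zbtb16 table, Zbtb16 null mice (homozygous for the luxoid allele, Zbtb16 lu/lu, which is carried by every cell of the animal) were compared with wild-type (WT) littermates. In the Sox3 table, mice with a floxed Sox3 gene and Ddx4-Cre, which drives recombination in germ cells (cKO), were compared with WT littermates. The mice were on the B6 background, and the testes of 3 mice were pooled for each isolation, so each library averages several animals and p-values measure the spread between these libraries.

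DNA replication begins when ORC, CDC6 and CDT1 load the MCM2-7 helicase onto origins in G1, a step that geminin, the product of Gmnn, blocks once S phase has started. MCM10, CDC45 and the GINS complex then turn the loaded helicase into a moving one, the polymerases follow on the PCNA clamp, and ribonucleotide reductase and thymidylate synthase supply nucleotides. CDK1 with its A and B cyclins, the Aurora and Polo kinases and the spindle checkpoint then carry the cell through mitosis. S phase genes are commonly driven by E2F factors, and mitotic genes by the MuvB complex, NF-Y and FOXM1, which act through the CHR element and the CCAAT box. Spermatogonia divide by mitosis before they enter meiosis, and dSPG go through a rapid series of such divisions.

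The promoters of 6 members are shown because these genes recur in the results below and their promoters differ in the motifs they hold. They are the 200 bases before the RefSeq start site in GRCm38.p6, printed 5′ to 3′ on the minus strand, on which all 6 genes lie. Capitals mark matches, on either strand, to an E2F word (TTCCCGC together with its relatives TTCGCGC as well as TTGGCGC and also TTGCCGC), to a CHR word (TTTGAA or else TTTAAA) and to the CCAAT box. They come from Mcm6 (chr1:128359706-128359905), Mcm10 (chr2:5012792-5012991), Pola1 (chrX:93632156-93632355), Cdk1 (chr10:69352913-69353112), Mki67 (chr7:135716380-135716579) and Aurka (chr2:172370571-172370770).
Mcm6: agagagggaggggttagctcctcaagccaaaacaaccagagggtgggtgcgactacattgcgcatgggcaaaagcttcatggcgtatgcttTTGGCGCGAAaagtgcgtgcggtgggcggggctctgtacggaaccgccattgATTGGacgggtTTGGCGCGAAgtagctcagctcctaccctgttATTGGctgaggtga
Mcm10: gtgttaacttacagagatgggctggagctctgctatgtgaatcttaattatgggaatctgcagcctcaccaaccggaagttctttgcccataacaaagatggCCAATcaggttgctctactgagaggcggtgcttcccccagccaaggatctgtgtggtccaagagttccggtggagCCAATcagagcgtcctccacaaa
Pola1: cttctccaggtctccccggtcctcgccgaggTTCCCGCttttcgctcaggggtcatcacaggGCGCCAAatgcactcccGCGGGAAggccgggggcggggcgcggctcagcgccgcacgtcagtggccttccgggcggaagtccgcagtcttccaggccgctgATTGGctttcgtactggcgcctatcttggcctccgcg
Cdk1: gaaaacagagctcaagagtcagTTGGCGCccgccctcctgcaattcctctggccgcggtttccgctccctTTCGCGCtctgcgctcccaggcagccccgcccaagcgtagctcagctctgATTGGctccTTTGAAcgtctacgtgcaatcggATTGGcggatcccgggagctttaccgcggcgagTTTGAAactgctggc
Mki67: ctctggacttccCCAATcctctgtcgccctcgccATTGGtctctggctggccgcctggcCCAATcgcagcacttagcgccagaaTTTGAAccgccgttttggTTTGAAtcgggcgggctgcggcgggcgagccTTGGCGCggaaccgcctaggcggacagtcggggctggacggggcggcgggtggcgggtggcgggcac
Aurka: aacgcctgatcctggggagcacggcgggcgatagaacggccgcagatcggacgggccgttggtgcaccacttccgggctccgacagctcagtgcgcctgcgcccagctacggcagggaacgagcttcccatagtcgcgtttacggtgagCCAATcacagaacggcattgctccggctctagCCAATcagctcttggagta

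Mcm6, a helicase subunit, held 4 E2F and 2 CCAAT matches, whereas Mcm10 held 2 CCAAT matches and none to an E2F word in these bases. Cdk1 and Mki67 each held 2 CHR matches beside their CCAAT boxes, and also 2 and 1 E2F matches, which makes them 2 of the 3 mitotic members with an E2F word. Aurka held CCAAT matches alone in these bases, and its 2 CHR matches lay after the start. Over the 300-base windows that RefSeq gave for 33 of the 44 members (250 bases before the start to 50 after it), an E2F word stood in 11 of 17 S phase promoters (64.7%) and in 3 of 16 mitotic promoters (18.8%), against 10.9% of all 27025 promoters. A CHR word stood in 6 of 17 S phase promoters (35.3%) and in 14 of 16 mitotic promoters (87.5%), against 30.6% of all. CCAAT was found in 76.5% of the S phase and 87.5% of the mitotic promoters, against 41.1% of all, and 2 members had a CCAAT match that overlapped one of the other motifs. The CHR word and CCAAT stood together in 13 of 16 mitotic promoters (81.2%), in 5 of 17 S phase promoters (29.4%) and in 12.2% of all. A match is a description of these letters and does not show that a factor binds there. Gmnn, Ccne2, Ccna2, Aurkb, Foxm1, Tpx2, Pole, Mcm4, Gins1, Gins2 and Gins4 had no entry among the RefSeq promoters used here.

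The targeted genes and the sorting markers were read in each library first, in FPKM (reads scaled to transcript length and to library depth, so that levels of different genes can be compared). Zbtb16 read 55.7, 58.7 and 42.0 FPKM in WT THY1+ and 17.5, 18.2 and 15.6 FPKM in null THY1+ libraries. Sox3 ranged from 6.28 to 24.4 FPKM in the 6 WT libraries and from 0 to 0.082 FPKM in the 6 cKO libraries. Thy1 and Kit followed the fraction labels in the Zbtb16 table and in the cKO libraries, but not in the WT libraries of the Sox3 table. There, Thy1 lay between 0.213 and 0.254 FPKM in the libraries labelled THY1+ and between 3.59 and 4.06 FPKM in those labelled KIT+, and Kit between 45.6 and 80.1 and between 12.97 and 18.8 FPKM. These libraries kept their labels and are called "labelled THY1+" and "labelled KIT+", and the cKO effect was taken over both WT groups together, which is the same if their labels are exchanged. The fractions also differed in markers of other cells of the testis. The summed FPKM of 11 macrophage markers lay between 1074 and 1229 in WT THY1+ and between 7.70 and 9.80 in WT KIT+ libraries, and that of 6 Leydig cell markers between 83.1 and 119 and between 1215 and 2272. In bulk RNA, fewer cells of a type and less RNA per cell cannot be told apart. Depth, estimated from the steps of low values, was 25680000 to 34980000 reads in the Zbtb16 table and 28120000 to 32200000 reads in replicates 1 of the Sox3 table, but 10880000 to 14800000 reads in its replicates 2 and 3. The lowest member value rested on about 181 reads (Ccne1), so counting error was small for every member.

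All 44 members were well expressed in every library. Single values ran from 5.96 to 181 FPKM. The median over members of the group means lay between 34.8 and 44.3 FPKM in the 8 groups. Mcm6 had the highest group mean of the members in each of the 8 groups, from 130 FPKM in null KIT+ to 171 FPKM in WT labelled THY1+ libraries. In WT THY1+ libraries its mean was 152.0 ± 11.9 FPKM (SD, n = 3). Ccne1, which encodes the cyclin E1 partner of CDK2, had the lowest group mean in 6 of the 8 groups and read 6.21, 6.56 and 5.96 FPKM in WT THY1+. The exceptions were Gins3 in null KIT+ (7.99 FPKM) and Pola1 in WT labelled THY1+ libraries (9.47 FPKM). The highest group mean was 16.0 to 24.3 times the lowest within a group, while replicates differed little (median coefficient of variation over members, 9.02% to 13.7% in the 8 groups). The spread between genes was therefore far wider than any difference between groups that is described below.

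**Figure D1:**
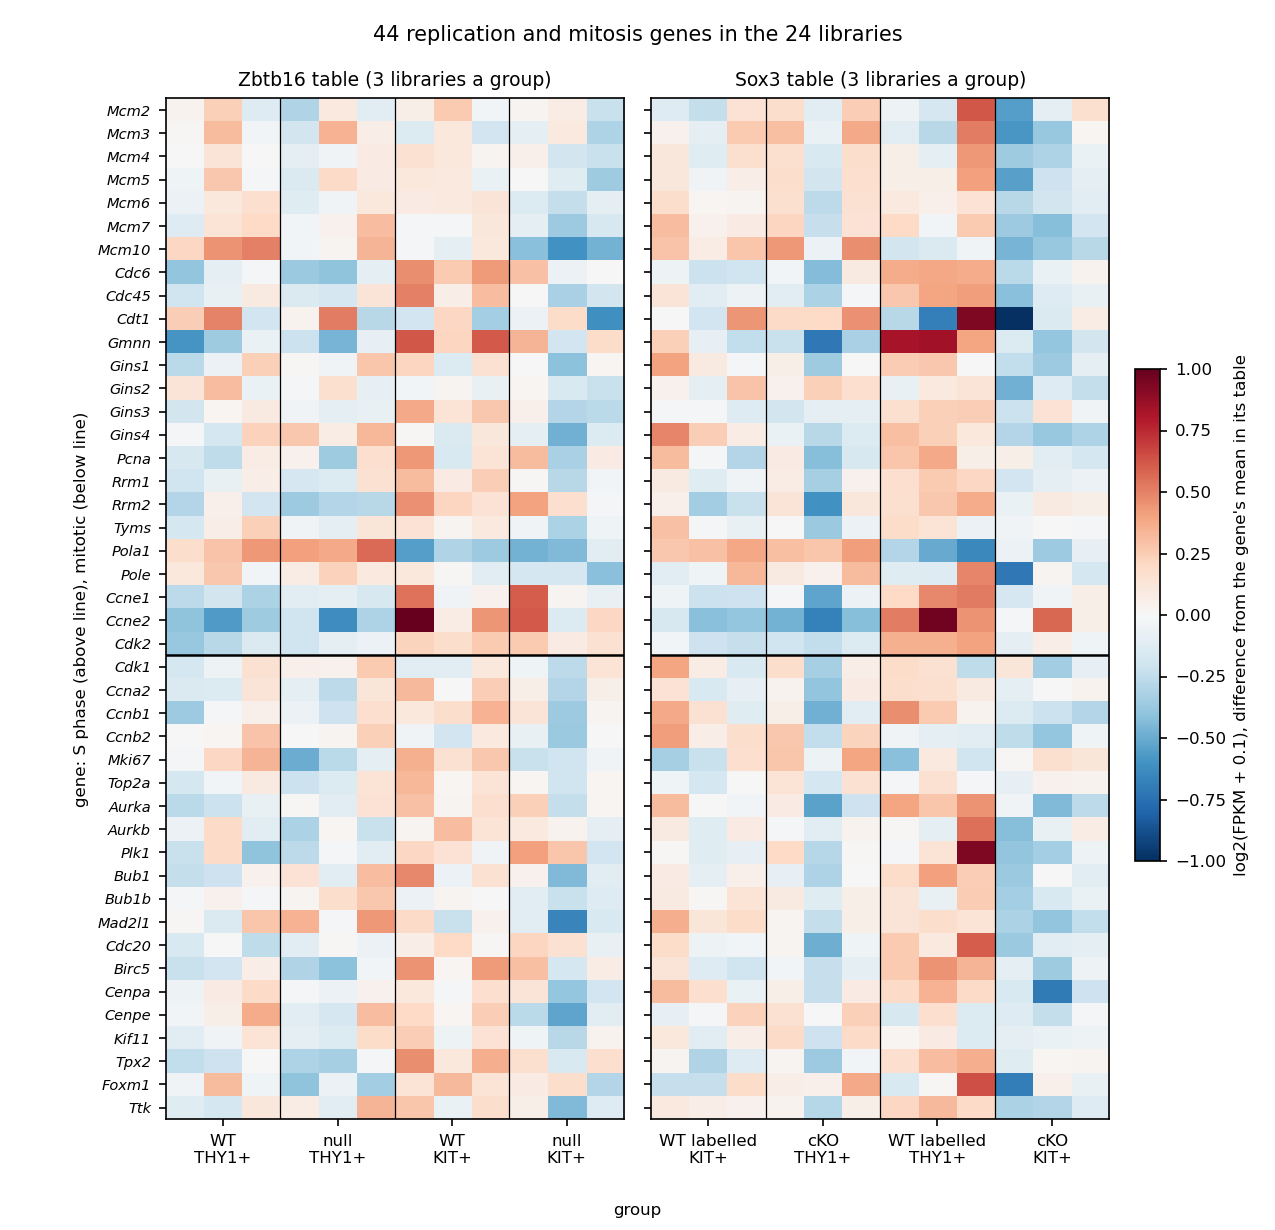
Log2 deviation of each of the 44 genes (rows, grouped into S phase and mitotic genes) from its own mean over the 12 libraries of a table, for the 24 libraries (columns, by group and replicate). Most rows stay close to their mean, with Gmnn, Ccne2 and Pola1 standing out between fractions.

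The first comparison asked which of these genes differed between dSPG and uSPG in WT mice. Few did, and they moved in both directions. A gene was called when its adjusted p in limma was at most 0.05 and its change at least 1.5-fold. By that rule 3 of the 44 members were called between WT KIT+ and WT THY1+ libraries of the Zbtb16 table (2 higher and 1 lower in KIT+), against 21.2% of all genes tested. All 3 are S phase genes, and no mitotic member was called.

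Gmnn (chr13:24751845-24761923, minus strand), the inhibitor of helicase loading, read 29.5, 34.6 and 42.4 FPKM in WT THY1+ and 68.2, 51.6 and 67.9 FPKM in WT KIT+ libraries. The groups did not overlap, and all KIT+ libraries were higher, by 0.82 on the log2 scale (SE 0.18, limma adjusted p = 0.00521). Ccne2, encoding cyclin E2, which activates CDK2 at the start of S phase, read 18.6, 16.7 and 19.2 FPKM in THY1+ and 59.1, 26.0 and 33.5 FPKM in KIT+ libraries. It was 1.03 higher in KIT+ on the log2 scale (SE 0.27, limma adjusted p = 0.0134), with replicate 1 of the KIT+ libraries well above the other two. Ccne2 shares 17.4% of its exon bases with Ints8 on the opposite strand, and whether strand was used in counting is not given in the sources used here.

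Pola1 (chrX:93304767-93632155, minus strand), the catalytic subunit of the polymerase that lays down primers, went the other way. It read 16.3, 17.5 and 19.5 FPKM in WT THY1+ and 9.81, 11.7 and 11.2 FPKM in WT KIT+ libraries, without overlap. Its log2 change of -0.70 (SE 0.12, limma adjusted p = 0.00112) was the only one of a member called lower. Mcm10 (chr2:4989714-5012791, minus strand) read 14, 16.6 and 17.2 FPKM in THY1+ and 12, 11.3 and 13.1 FPKM in KIT+ libraries. It was also lower in KIT+ without overlap, but by less than 1.5-fold (log2 change -0.39, limma adjusted p = 0.0316).

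With no fold threshold, 8 members had an adjusted p of at most 0.05 (28.9% of all genes), 6 higher and 2 lower in KIT+. Besides Gmnn and Ccne2 the higher ones were Cdc6, a helicase loader (log2 change 0.55, limma adjusted p = 0.0104), Cdk2 (0.49, 0.00139), Rrm2, the small subunit of ribonucleotide reductase (0.42, 0.03), and Tpx2, a spindle assembly factor (0.46, 0.0212). Tpx2 had the largest change of the mitotic members and read 26.1, 26.7 and 30.7 FPKM in THY1+ and 42.6, 33.3 and 39.7 FPKM in KIT+ libraries, without overlap. Birc5, encoding the chromosomal passenger survivin, was next, with 11.3, 11.6 and 13.8 FPKM against 18.1, 13.4 and 17.8 FPKM. Its groups overlapped and its limma adjusted p was 0.0731. Aurka, the centrosomal Aurora kinase, read 17.6, 18.3 and 20.1 FPKM against 26.0, 21.5 and 23.8 FPKM, which did not overlap but missed the threshold (log2 change 0.35, limma adjusted p = 0.0567).

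The common proliferation markers differed little. Mki67, encoding the Ki-67 protein of dividing cells, read 72.1, 83.8 and 92.1 FPKM in WT THY1+ and 92.9, 80.6 and 87.6 FPKM in WT KIT+ libraries. Pcna, the sliding clamp, read 39.9, 37.2 and 46.9 FPKM against 60.0, 39.9 and 49.0 FPKM. Mcm2 read 81.0, 93.1 and 72.3 FPKM against 82.5, 94.8 and 77.4 FPKM. All 3 overlapped between the fractions, with limma adjusted p of 0.676, 0.373 and 0.815. Cdk1, the kinase that starts mitosis, was close to level, with 22.3, 24.4 and 28.0 FPKM in THY1+ and 23.3, 23.4 and 27.2 FPKM in KIT+ libraries (log2 change -0.01, 95% interval -0.29 to 0.26). Its partner Ccnb1 read 11.99, 15.3 and 15.9 FPKM against 16.6, 17.4 and 19.6 FPKM, higher in each KIT+ library but with a limma adjusted p of 0.148. Ccne1 read 10.9, 7.28 and 7.69 FPKM in KIT+, above every THY1+ library (limma adjusted p = 0.0984).

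**Figure D2:**
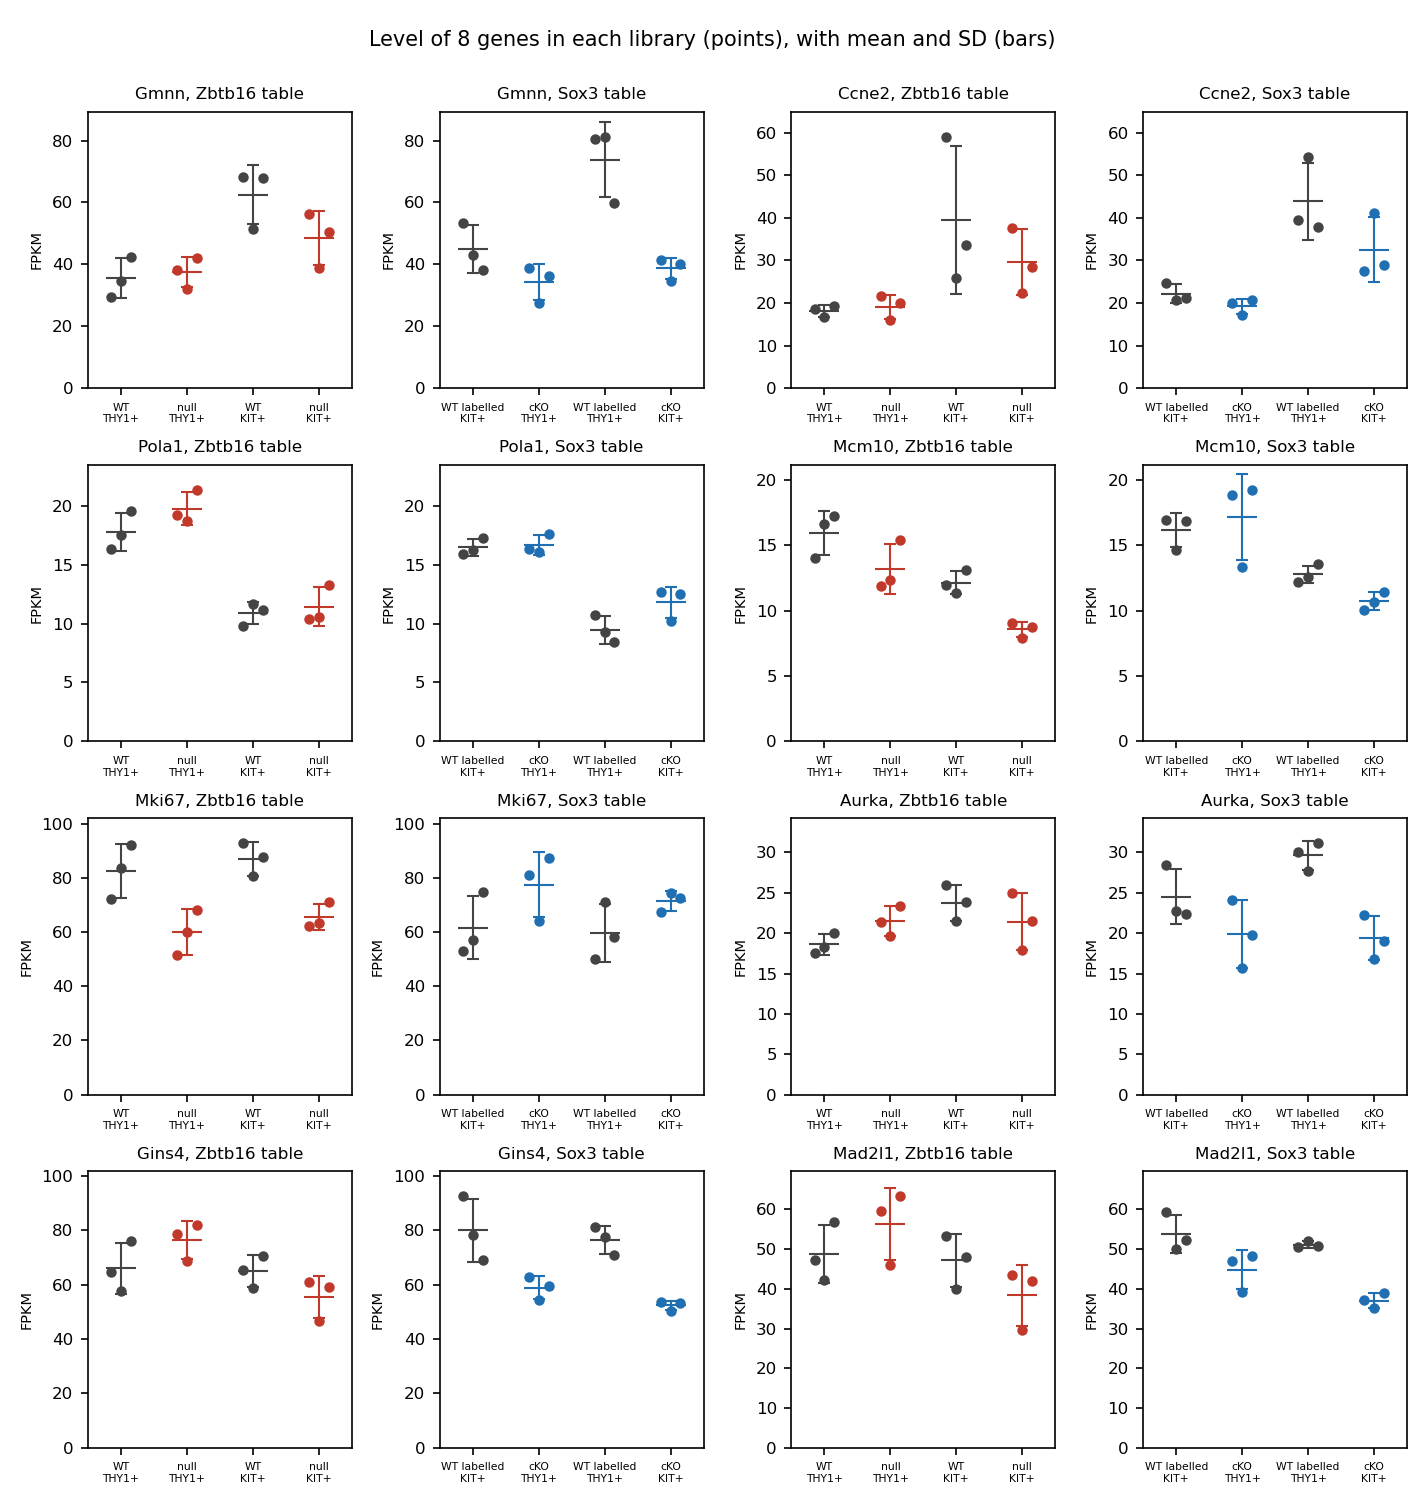
FPKM of 8 members in each library (points) of the 8 groups, with the group mean and SD (n = 3). Gmnn and Ccne2 are higher and Pola1 lower in WT KIT+ than in WT THY1+ libraries of the Zbtb16 table, and the WT libraries of the Sox3 table show the opposite order under their labels.

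In all, 31 of the 44 members were above 0 and 13 below 0 in WT KIT+ minus THY1+, and the median log2 change was 0.05 for the S phase and 0.17 for the mitotic members, against -0.03 for all genes tested. The groups did not overlap for 12 members higher in KIT+ (18.5% of all genes) and for 2 lower, Mcm10 and Pola1 (24.1% of all genes). Among 42 other replication genes only Chaf1b, a histone chaperone subunit, was called (log2 change -1.09, limma adjusted p = 0.000784), and it was lower in KIT+ like Pola1. Of 40 other mitosis genes, 2 were called higher, Ckap2l (0.69, limma adjusted p = 0.0106) and Spc24 (0.59, limma adjusted p = 0.0115). When libraries were scaled instead on 8 genes expressed in all germ cells (Ddx4, Dazl and others), the median of all genes moved from -0.03 to 0.18. With this scaling 8 members were called higher and none lower (21.5% of all genes called in either direction). The medians were 0.26 for the S phase and 0.38 for the mitotic members. Of those 8 germ cell genes, 1 was itself called lower in WT KIT+ and none higher. Relative to all genes the members' median was 0.14, and 0.04 with quantile normalization.

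Mcm10 and Pola1 were the members called between the fractions of null mice, both lower in KIT+, where 29.2% of all genes were called. Pola1 read 19.2, 18.7 and 21.3 FPKM in null THY1+ and 10.4, 10.6 and 13.3 FPKM in null KIT+ libraries (log2 change -0.79, SE 0.12, limma adjusted p = 0.000329), and stood at -0.01 with germ cell scaling. Mcm10 read 11.9, 12.4 and 15.4 FPKM against 9.08, 7.95 and 8.72 FPKM (log2 change -0.61, SE 0.12, limma adjusted p = 0.00202), but turned to 0.17 with germ cell scaling, under which the median of all genes was 0.73. Gmnn, with 38.3, 32.2 and 41.9 FPKM against 56.3, 38.9 and 50.4 FPKM, overlapped in null mice (log2 change 0.36, limma adjusted p = 0.127). Ccne2, with 21.5, 16.0 and 19.9 FPKM against 37.7, 22.4 and 28.6 FPKM, did not overlap, and its limma adjusted p was 0.0945. A call in WT and none in null mice does not show that the fractions differed more in WT, and the test of that difference is the interaction given below.

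In cKO mice, Ccne2 was called higher and Mcm10 lower in KIT+ libraries, where 22.7% of all genes were called. Ccne2 read 19.9, 17.3 and 20.6 FPKM in cKO THY1+ and 27.4, 41.3 and 28.9 FPKM in cKO KIT+ libraries (log2 change 0.73, SE 0.17, limma adjusted p = 0.00847). Mcm10 read 18.8, 13.3 and 19.2 FPKM against 10.04, 10.7 and 11.4 FPKM (log2 change -0.66, SE 0.14, limma adjusted p = 0.00408). Neither overlapped. Pola1 read 16.3, 16.0 and 17.6 FPKM against 12.6, 10.3 and 12.5 FPKM, lower without overlap and by just under 1.5-fold (log2 change -0.50, limma adjusted p = 0.00755, but 0.02 with germ cell scaling). In the WT libraries of the same table, KIT+ minus THY1+ as labelled called Pola1 higher (0.80, limma adjusted p = 0.000409) and Gmnn (-0.71, 0.00954) and Ccne2 (-0.96, 0.00179) lower, against 19.7% of all genes called. Pola1 read 10.7, 9.28 and 8.39 FPKM in WT labelled THY1+ and 15.9, 16.2 and 17.3 FPKM in WT labelled KIT+, and Ccne2 39.5, 54.2 and 37.9 FPKM and 24.8, 20.8 and 21.1 FPKM. These directions are opposite to those in the Zbtb16 table, as were those of Thy1 and Kit.

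The next comparison asked how the loss of Zbtb16 touched these genes in uSPG. No member was called between null and WT THY1+ libraries, where 3.98% of all genes were called, and the changes ran from -0.46 to 0.25 on the log2 scale. The medians were -0.01 for both the S phase and the mitotic members (-0.03 for all genes), and 24 of 44 members were below 0 (53.3% of all genes). At an unadjusted p under 0.05, 3 members were lower and none higher in limma, against 11.6% of all genes lower and 12.2% higher.

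Mki67 (chr7:135689784-135716361, minus strand) had the lowest value relative to WT. It read 72.1, 83.8 and 92.1 FPKM in WT and 51.5, 60.2 and 68.3 FPKM in null THY1+ libraries, so that each null library lay below all the WT ones. The log2 change was -0.46 (SE 0.12, limma adjusted p = 0.0534), just outside the threshold. Foxm1, a transcription factor of the mitotic program, read 11.04, 14.1 and 10.96 FPKM in WT and 8.53, 10.9 and 8.88 FPKM in null libraries, also without overlap (log2 change -0.35, limma adjusted p = 0.188). These 2 were the members lower in null without overlap, against 14.1% of all genes. Mcm10, the third of the 3, had a log2 change of -0.27 (limma adjusted p = 0.198) and overlapped.

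Same-numbered null and WT libraries deviated together in the Zbtb16 table, and a fit with the replicate number as a block gave more members an adjusted p of at most 0.05. In THY1+ libraries these were Mki67 (limma adjusted p = 0.0104) and Foxm1 (0.0245), lower in null, and Gins4 (0.0395), higher by 0.21 on the log2 scale but below 0 with germ cell scaling. That was 3 of 44 members, against 20.3% of all genes in the blocked fit, and none reached 1.5-fold. The mitotic kinases (5 of 6) and all 3 members of the group of cyclin E and CDK2 lay above 0 in the null, with medians of 0.16 and 0.13, and 5 of the 6 helicase subunits below 0, with a median of -0.04. None of these passed the test.

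The common proliferation genes lay close to WT in null THY1+ libraries. Mcm2 read 64.1, 84.3 and 73.2 FPKM there, Pcna 45.8, 34.6 and 49.9 FPKM, and Ccne1 6.91, 6.98 and 6.66 FPKM. Cdk1 read 26.1, 25.98 and 30.3 FPKM, and Ccnb1 14.8, 13.3 and 17.3 FPKM. Null and WT libraries overlapped for all of these but Ccne1, whose null libraries were each above WT (log2 change 0.13, limma adjusted p = 0.693), and the limma adjusted p of the other 4 lay between 0.515 and 0.875. The mitotic members that differed most between WT fractions overlapped too, with Tpx2 at 24.9, 24.5 and 30.7 FPKM, Birc5 at 10.7, 9.91 and 12.99 FPKM and Aurka at 21.3, 19.7 and 23.4 FPKM in null THY1+.

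Markers of cell types differed with genotype in the same libraries. In THY1+ libraries the 8 germ cell markers were all higher in null mice (median log2 change 0.32) and the 11 macrophage markers tested all lower (-0.75), with summed macrophage levels of 1074 to 1229 FPKM in WT and 507 to 935 FPKM in null libraries. The changes of the germ cell markers ran from 0.23 to 1.14, and 1 of the 8 was itself called higher. With germ cell scaling, all 44 members were below 0 in null THY1+ and 6 were called lower (24.8% of all genes called in either direction). The medians were -0.45 for S phase and for mitotic members. The median of all genes also moved, to -0.46, since this scaling shifts every gene alike. Relative to all genes the members stood at 0.01, and at -0.06 with quantile normalization. The part of these cells in the members' values was not tested.

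In dSPG the loss of Zbtb16 came with small differences that nearly all had the same sign. No member was called between null and WT KIT+ libraries, where 0.259% of all genes were called, yet 40 of 44 members lay below 0 (49.0% of all genes). The median log2 change was -0.22 for the S phase and -0.22 for the mitotic members, against 0.01 for all genes. At an unadjusted p under 0.05, limma had 10 members lower (6.78% of all genes) and none higher. The groups did not overlap for 11 members, all lower in null (8.77% of all genes), namely Mcm6, Mcm7, Mcm10, Cdc45, Gins3, Rrm1, Tyms, Pole, Mki67, Bub1b and Cenpe.

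Mcm10 had the smallest p. It read 12, 11.3 and 13.1 FPKM in WT and 9.08, 7.95 and 8.72 FPKM in null KIT+ libraries, a log2 change of -0.49 (SE 0.12, limma adjusted p = 0.141). Cdc45, which completes the moving helicase with MCM2-7 and GINS, read 73.1, 54.0 and 63.9 FPKM against 51.8, 41.2 and 45.6 FPKM. Its log2 change was -0.46 (SE 0.14, limma adjusted p = 0.177), and every null library was below every WT library. Gins3, a GINS subunit, read 11.7, 9.85 and 10.8 FPKM against 9.27, 7.30 and 7.41 FPKM (log2 change -0.43, SE 0.12, limma adjusted p = 0.164).

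Mcm6 read 153, 154 and 158 FPKM in WT and 131, 122 and 135 FPKM in null KIT+ libraries, a narrow but complete separation (log2 change -0.26, SE 0.09, limma adjusted p = 0.215). Mki67 read 92.9, 80.6 and 87.6 FPKM against 62.1, 63.3 and 71.0 FPKM (log2 change -0.41, SE 0.12, limma adjusted p = 0.177). Cenpe, the kinetochore motor, read 55.9, 49.6 and 57.8 FPKM against 40.5, 33.8 and 45.2 FPKM (-0.46, SE 0.15, limma adjusted p = 0.2). Again no null library reached a WT library. Gmnn and Ccne2, the members that were higher in WT dSPG than in WT uSPG, had log2 changes of -0.37 and -0.36 in null KIT+, with overlap and limma adjusted p of 0.309 and 0.498.

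Of the common proliferation genes, Mcm2 read 80.4, 83.01 and 67.9 FPKM in null KIT+, Pcna 55.2, 35.5 and 47.04 FPKM, and Ccne1 11.4, 7.59 and 7.09 FPKM. Cdk1 read 24.4, 20.98 and 27.7 FPKM, and Ccnb1 16.9, 11.97 and 15.7 FPKM. All 5 overlapped with WT, with limma adjusted p between 0.365 and 0.997. Tpx2 (34.4, 27.7 and 34.8 FPKM), Birc5 (16.3, 11.7 and 13.9 FPKM) and Aurka (24.9, 17.9 and 21.5 FPKM) overlapped with WT in KIT+ libraries as well.

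By role, all 6 helicase subunits, all 6 genes of helicase activation, the 3 licensing genes and the 3 genes of nucleotide supply were below 0. The 4 members above 0 were Pola1 (0.06), Plk1 (0.06), Cdc20 (0.01) and Ccne1 (0.00), and none of them passed the test. Of the wider lists, 40 of 42 other replication genes and 38 of 40 other mitosis genes were also below 0, with 10 and 14 at an unadjusted p under 0.05 in limma and none called.

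With the replicate block, 6 members had an adjusted p of at most 0.05 (5.43% of all genes), all lower in null KIT+ and all under 1.5-fold. They were Cenpe (limma adjusted p = 0.0279), Mcm10 (0.0317), Mki67 (0.0428), Mcm6 (0.0476), Cdc45 (0.0491) and Gins3 (0.0495). Germ cell markers were lower as well (7 of 8 below 0, median -0.20), and Leydig cell markers higher (6 of 6, median 0.60), with summed Leydig levels of 1215 to 2272 FPKM in WT and 2045 to 3122 FPKM in null KIT+ libraries. Under germ cell scaling the medians were -0.08 for both lists and 31 of 44 members were below 0. The median of all genes was then 0.15, as every gene is shifted alike. Relative to all genes the members were at -0.23, and at -0.20 with quantile normalization. The part of cell makeup in these differences was not tested.

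**Figure D3:**
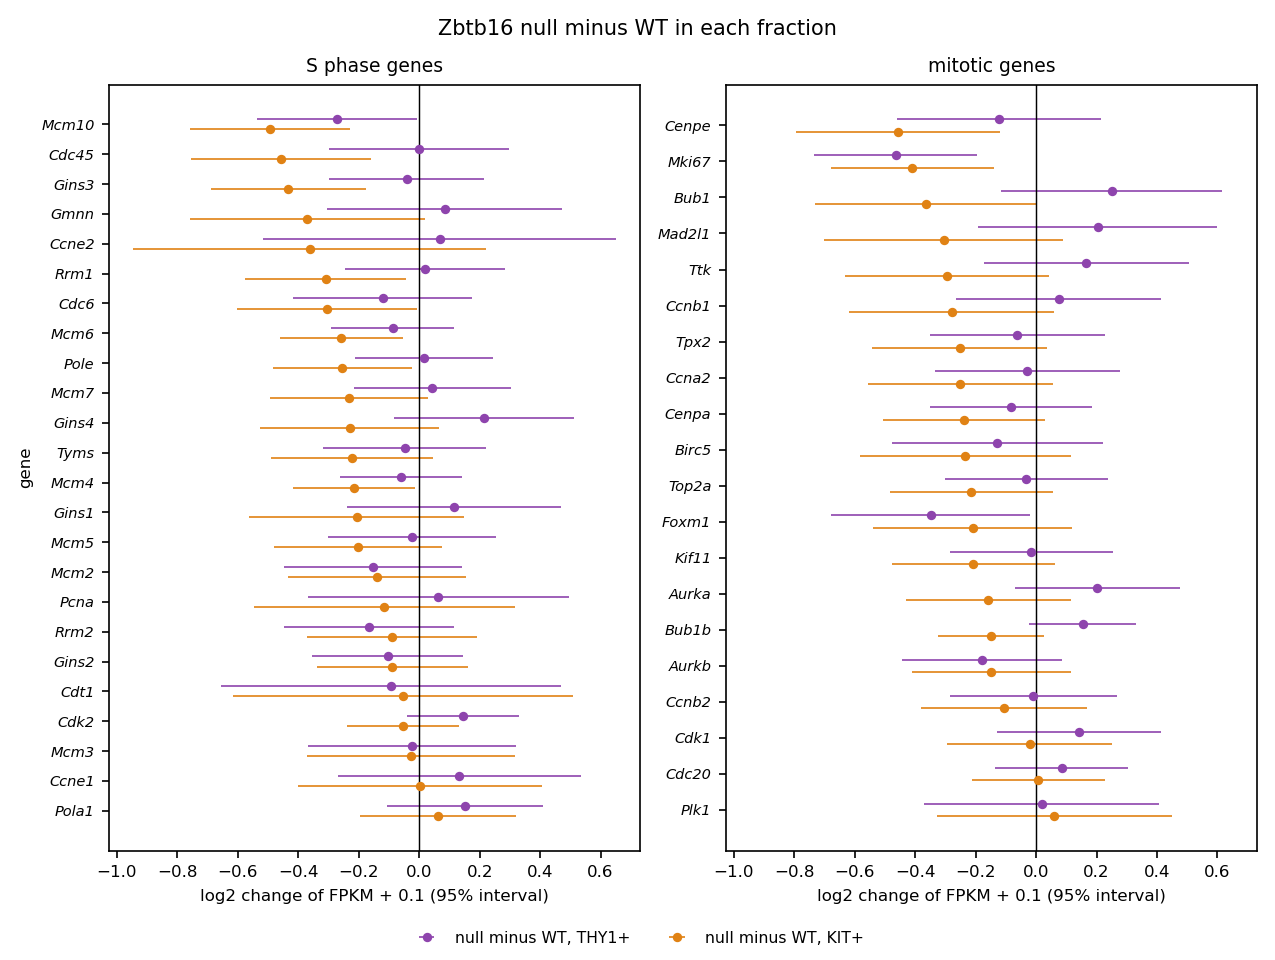
Log2 change (points) with its 95% interval (lines) for null minus WT in THY1+ and in KIT+ libraries, for the 44 members. In THY1+ libraries 24 of 44 members lie below 0, and in KIT+ libraries 40 of 44.

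Averaged over both fractions, Mki67 and Mcm10 had an adjusted p of at most 0.05 between null and WT (4.05% of all genes), both lower in null and both under 1.5-fold, so that no member was called (2.3% of all genes). Mki67 was lower by 0.44 on the log2 scale (SE 0.09, 95% interval -0.63 to -0.25, limma adjusted p = 0.0177), and Mcm10 by 0.38 (SE 0.09, 95% interval -0.57 to -0.20, limma adjusted p = 0.03). Mki67 was the only member for which all 6 null libraries, of both fractions, lay below all 6 WT libraries (0.46% of all genes were lower in this way). With the replicate block 5 members passed, against 12.1% of all genes, namely Mki67 (limma adjusted p = 0.00361), Mcm10 (0.00688), Cenpe (0.0133), Foxm1 (0.0201) and Mcm6 (0.0323).

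Whether the null effect differed between dSPG and uSPG was tested as an interaction, in which a value below 0 means that the null was lower relative to WT in KIT+ than in THY1+ libraries. No member was called (0.0313% of all genes), and 36 of 44 members were below 0 (49.6% of all genes), with medians of -0.18 for the S phase and -0.19 for the mitotic members. At an unadjusted p under 0.05, limma had 5 members below 0 (9.54% of all genes) and none above. These were Bub1 (-0.61), Cdc45 (-0.46), Gins4 (-0.44), Gins3 (-0.39) and Bub1b (-0.30), with limma adjusted p from 0.157 to 0.201. Bub1, a spindle checkpoint kinase, had the largest value of the members. It read 47.9, 48.7 and 58.2 FPKM in WT and 62.5, 52.3 and 69.8 FPKM in null THY1+, but 78.7, 54.0 and 62.7 FPKM in WT and 57.9, 41.4 and 52.0 FPKM in null KIT+ libraries. Null and WT libraries overlapped in each fraction. Gins4 read 64.6, 57.5 and 76.1 FPKM in WT and 78.5, 68.5 and 81.9 FPKM in null THY1+, and 65.5, 58.8 and 70.4 FPKM in WT and 60.8, 46.6 and 59.3 FPKM in null KIT+ libraries.

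The block changed this result. With it, Bub1 was called (limma adjusted p = 0.0323, against 12.3% of all genes called), and Gins4 (0.0192), Mad2l1 (0.0241), Ttk (0.0405) and Bub1b (0.0456) had an adjusted p of at most 0.05 under 1.5-fold (19.3% of all genes). Under germ cell scaling the members' medians turned to 0.39, and so did the sign of Cdc45, Gins3, Gins4 and Bub1b, while the median of all genes was 0.58. Bub1 stayed below 0, but the 0.58 added to every gene took up nearly all of its -0.61. That scaling shifts every gene alike and so leaves the members at -0.19 relative to all genes, but with quantile normalization they were at -0.08. The cell markers moved in this interaction too, with 8 of 8 germ cell markers below 0 (median -0.61), 6 of 6 Leydig cell markers above 0 (1.35) and 11 of 11 macrophage markers above 0 (0.86). Their part in the members' values was not tested.

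**Figure D4:**
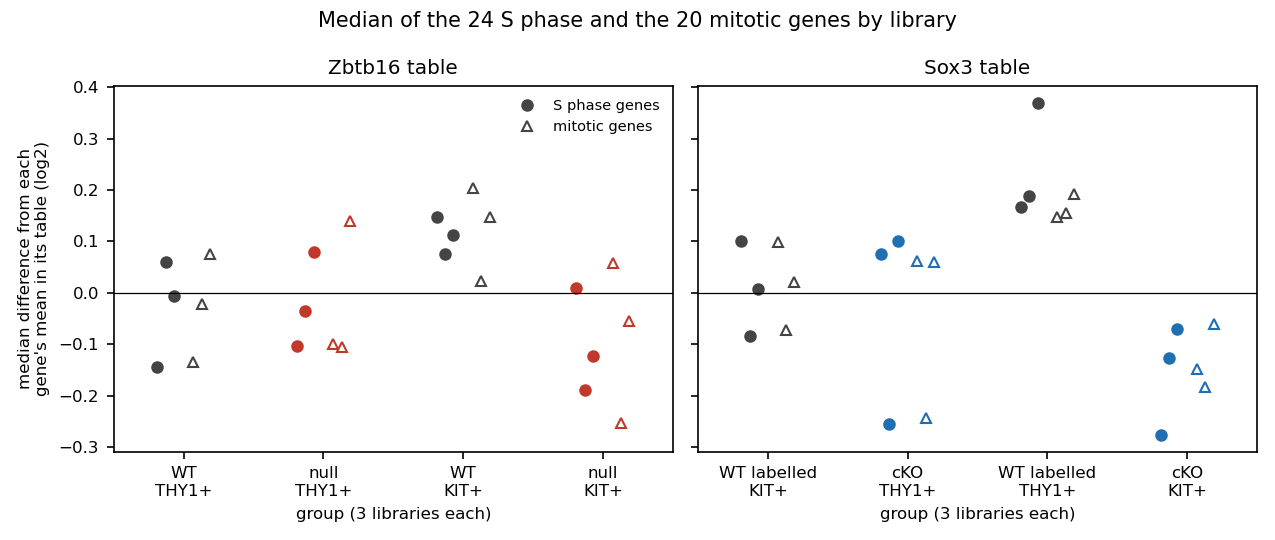
Median, over the S phase and over the mitotic members, of the log2 deviation from each gene's mean over the 12 libraries of its table, for each of the 24 libraries. The 2 lists mostly move together, and null KIT+ and cKO KIT+ libraries lie mostly below the WT libraries of like Kit level.

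In most libraries the S phase and mitotic members deviated together. The signs of the S phase and mitotic medians differed in WT THY1+ replicate 2 (0.06 and -0.02) and replicate 3 (-0.01 and 0.08). The difference between the 2 list medians lay between -0.13 and 0.18 on the log2 scale in the 24 libraries. The largest was in replicate 3 of WT labelled THY1+, where the S phase median stood 0.37 above the table mean and the mitotic median 0.19. That library also read high for Cdt1, the helicase loader that geminin inhibits, at 56.8 FPKM against 24.6 and 18.5 FPKM in the other two of its group. Plk1 (26.7 against 13.8 and 15.3 FPKM) and Foxm1 (20.5 against 11.8 and 13.2 FPKM) showed the same in that library.

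After the loss of Sox3 in germ cells, 14 of 44 members passed the test of an adjusted p of at most 0.05. Averaged over both fractions, 41 of 44 members were below 0 in cKO minus WT (47.3% of all genes), with medians of -0.19 for the S phase and -0.18 for the mitotic members, against 0.02 for all genes. Gmnn was the 1 member called, lower in cKO (10.3% of all genes called). The 14 members that passed with no fold threshold were all lower in cKO, against 11.6% of all genes lower.

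Gmnn read 80.4, 81.3 and 59.7 FPKM in WT labelled THY1+ and 53.5, 42.9 and 38.3 FPKM in WT labelled KIT+, against 38.9, 27.6 and 36.2 FPKM in cKO THY1+ and 41.4, 34.7 and 40.0 FPKM in cKO KIT+ libraries. All WT libraries but replicate 3 of WT labelled KIT+ lay above every cKO library. The averaged log2 change was -0.66 (SE 0.12, 95% interval -0.92 to -0.39, limma adjusted p = 0.0045). The call was lost with quantile normalization, without replicate 2 of cKO THY1+ and with replicates 2 and 3 alone, where in each case 0 members were called. Germ cell scaling raised every gene alike, the median of all genes from 0.02 to 0.40, which left Gmnn under 1.5-fold and not called.

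Gins4 (chr8:23226616-23237659, minus strand) had the smallest adjusted p. It read 81.0, 77.6 and 70.9 FPKM in WT labelled THY1+ and 92.4, 78.1 and 69.2 FPKM in WT labelled KIT+, against 62.8, 54.2 and 59.6 FPKM in cKO THY1+ and 53.7, 50.5 and 53.1 FPKM in cKO KIT+ libraries. All 6 cKO libraries were below all 6 WT libraries (log2 change -0.49, SE 0.08, limma adjusted p = 0.00337). Mad2l1, encoding the checkpoint protein MAD2, read 50.5, 52.1 and 50.7 FPKM and 59.3, 50.1 and 52.4 FPKM in the WT groups, against 47.0, 39.2 and 48.2 FPKM and 37.1, 35.1 and 39.0 FPKM in the cKO groups in the same order. It too separated the genotypes fully (log2 change -0.37, SE 0.07, limma adjusted p = 0.00614), and Gins4 and Mad2l1 were the 2 members to do so (2.79% of all genes were lower in this way), although Mad2l1 came to 0.0069 with germ cell scaling.

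Aurka read 30.0, 27.7 and 31.2 FPKM in WT labelled THY1+ and 28.4, 22.8 and 22.4 FPKM in WT labelled KIT+, against 24.2, 15.7 and 19.8 FPKM in cKO THY1+ and 22.2, 16.8 and 19.0 FPKM in cKO KIT+ libraries (log2 change -0.47, SE 0.11, limma adjusted p = 0.0135). One cKO library, at 24.2 FPKM, lay above the lower WT values. Cenpa, the centromeric histone H3 variant, read 38.8, 43.2 and 38.7 FPKM and 42.2, 38.1 and 32.4 FPKM in the WT groups, against 35.3, 28.9 and 35.8 FPKM and 30.4, 20.7 and 29.3 FPKM in the cKO groups (log2 change -0.39, SE 0.11, limma adjusted p = 0.0264). The other S phase members that passed, all under 1.5-fold, were Cdc45 (-0.35, limma adjusted p = 0.013), Cdk2 (-0.22, 0.0244), Gins1 (-0.34, 0.0339) and Mcm7 (-0.29, 0.0487), all 4 of which turned above 0 with germ cell scaling. The other mitotic members were Ttk (-0.31, 0.0131), Bub1 (-0.29, 0.0298), Ccnb1 (-0.39, 0.0316), Birc5 (-0.28, 0.032) and Cdc20 (-0.36, 0.0421), of which all but Ccnb1 turned above 0 with that scaling. Aurka, Cenpa and Ccnb1 stayed below 0, but the 0.37 that this scaling adds to every gene is most of their change. Birc5 read 18.2, 20.8 and 19.3 FPKM and 16.7, 13.9 and 13.2 FPKM in the WT groups, against 14.9, 12.9 and 14.2 FPKM and 14.3, 11.9 and 14.7 FPKM in the cKO groups. Tpx2, which did not pass (-0.15, limma adjusted p = 0.239), read 38.1, 42.001 and 43.7 FPKM and 34.4, 27.5 and 30.9 FPKM, against 34.5, 26.3 and 33.3 FPKM and 31.1, 34.4 and 34.6 FPKM.

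Ccnb1 read 23.3, 20.3 and 17.3 FPKM and 22.0, 18.8 and 15.6 FPKM in WT labelled THY1+ and labelled KIT+, against 17.6, 12.1 and 15.7 FPKM and 15.3, 14.6 and 13.8 FPKM in cKO THY1+ and KIT+. Other widely used proliferation genes did not pass. Cdk1 read 30.2, 29.5 and 22.3 FPKM and 34.9, 27.9 and 23.8 FPKM in the WT groups, against 29.96, 21.0 and 27.8 FPKM and 28.9, 20.9 and 24.99 FPKM in the cKO groups in the same order (log2 change -0.13, limma adjusted p = 0.495). Pcna read 60.1, 64.5 and 51.4 FPKM and 61.5, 49.2 and 40.3 FPKM, against 52.3, 36.9 and 44.3 FPKM and 51.5, 45.99 and 43.7 FPKM (-0.24, limma adjusted p = 0.155). Both overlapped between the genotypes. Mcm2 read 99.5, 91.6 and 158 FPKM and 94.1, 87.3 and 114 FPKM, against 116, 95.001 and 122 FPKM and 70.4, 97.01 and 115 FPKM (-0.06, limma adjusted p = 0.821). Ccne1 read 10.4, 12.6 and 13.01 FPKM and 8.77, 7.76 and 7.81 FPKM, against 8.97, 6.24 and 8.67 FPKM and 8.005, 8.83 and 9.39 FPKM (-0.25, limma adjusted p = 0.109). These overlapped as well, with the highest value of each member in replicate 3 of WT labelled THY1+.

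Mki67 lay on the other side of 0. It read 49.99, 71.2 and 58.2 FPKM in WT labelled THY1+ and 53.0, 57.1 and 74.8 FPKM in WT labelled KIT+, against 81.0, 64.2 and 87.5 FPKM in cKO THY1+ and 67.3, 74.4 and 72.8 FPKM in cKO KIT+ libraries. The averaged log2 change was 0.30 (SE 0.12, 95% interval 0.05 to 0.56, limma adjusted p = 0.0791), with overlap. Top2a (0.04) and Pola1 (0.16) were the other members above 0.

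The direction of these cKO differences turned with germ cell scaling. The median of the 44 members stayed below 0 with median scaling (-0.18) and with quantile normalization (-0.11). Germ cell markers, on which germ cell scaling rests, were themselves lower in cKO libraries (8 of 8, median -0.36, 1 called lower). Leydig cell markers were higher (6 of 6, median 0.86). With germ cell scaling the members' medians turned to 0.19 for both lists and 5 of 44 members were below 0, while the median of all genes was 0.40. Relative to all genes the members were at -0.21, which a shift of every gene alike cannot change, and at -0.10 with quantile normalization. The part of cell makeup in these values was not tested.

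Because Thy1 and Kit go against the WT labels in this table, each cKO group was also set beside the WT group with like levels of Thy1 and Kit, which was chosen from those measured values. For cKO THY1+ against WT labelled KIT+, no member was called (0.0707% of all genes), 26 of 44 members were below 0 and the medians were -0.04 for the S phase and -0.07 for the mitotic members. At an unadjusted p under 0.05, limma had 3 members lower (8.6% of all genes) and none higher. They were Gins4 (-0.43, limma adjusted p = 0.236), Gmnn (-0.39, 0.359) and Mad2l1 (-0.27, 0.318). The median of the 44 members, -0.05, turned above 0 with quantile normalization and with germ cell scaling.

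For cKO KIT+ against WT labelled THY1+, 3 members were called, all lower in cKO (17% of all genes called, 4.57% called lower). They were Gmnn (log2 change -0.92, SE 0.17, limma adjusted p = 0.00469), Aurka (-0.62, SE 0.16, limma adjusted p = 0.0177) and Cenpa (-0.60, SE 0.16, limma adjusted p = 0.0177). In this comparison 42 of 44 members were below 0 (47.9% of all genes), with medians of -0.36 for the S phase and -0.36 for the mitotic members, and 15 had an adjusted p of at most 0.05, all lower (9.21% of all genes lower). For 26 members every cKO library was below every WT library (17.2% of all genes). Of the other replication genes 5 of 42 were called lower (Recql4, Orc1, Rfc4, Rpa2 and Fen1). Of the other mitosis genes 2 of 40 were called lower (Cdca5 and Cdca8), against 4.57% of all genes. With quantile normalization 1 member was called.

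The same libraries differed in germ cell markers (8 of 8 lower in cKO KIT+, median -0.51) and in Leydig cell markers (6 of 6 higher, median 1.30), with summed Leydig levels of 1239 to 2004 FPKM in WT labelled THY1+ and 2493 to 4941 FPKM in cKO KIT+. Under germ cell scaling the members' medians turned to 0.16 and 6 of 44 members were below 0, with a median of all genes of 0.54. With this scaling 2 members were called higher (39.5% of all genes called in either direction). Relative to all genes the members were at -0.38, which such a shift cannot change, and at -0.25 with quantile normalization. The part of cell makeup was not tested.

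**Figure D5:**
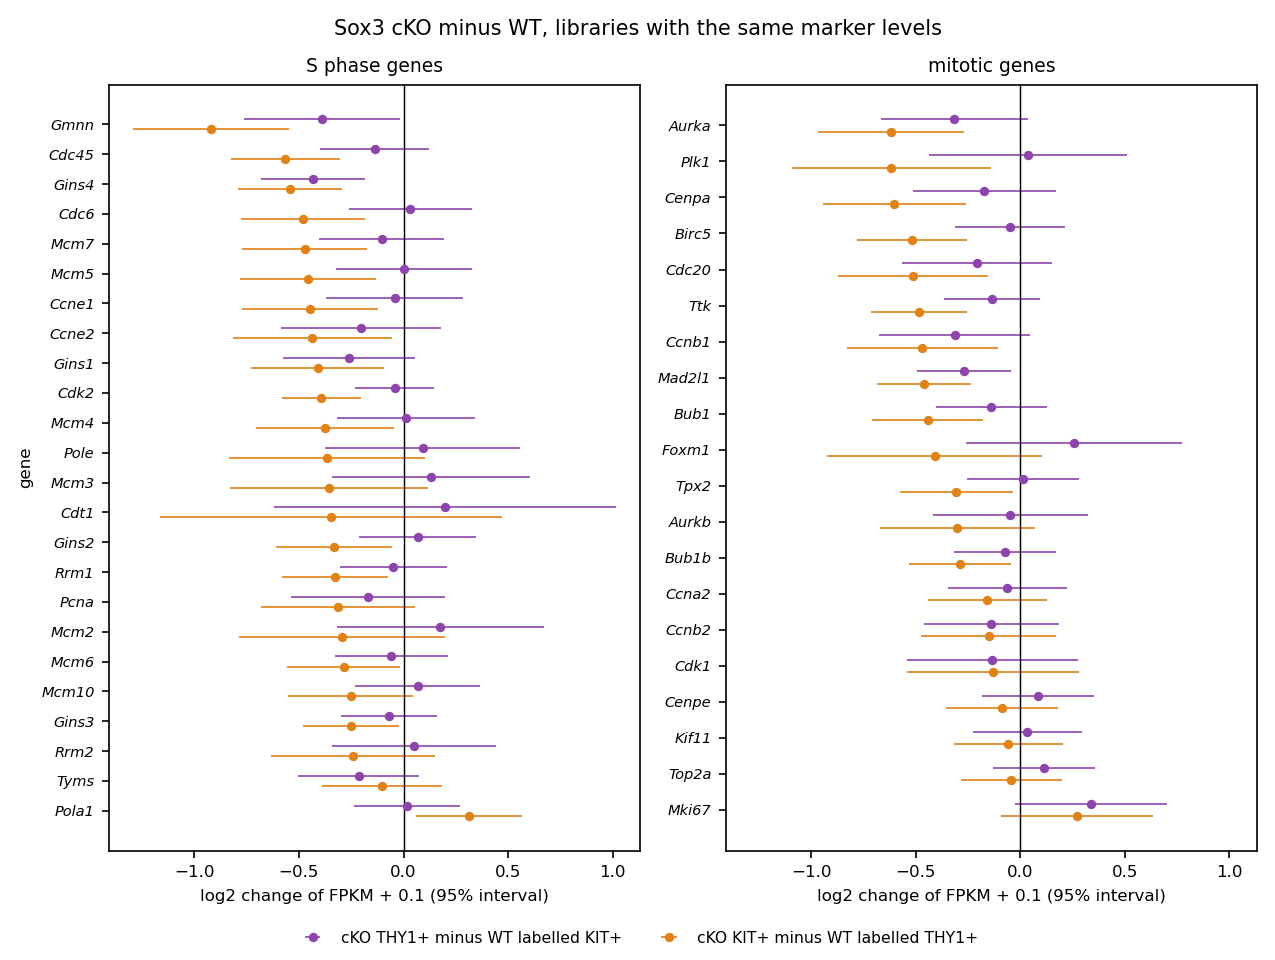
Log2 change (points) with its 95% interval (lines) for cKO THY1+ minus WT labelled KIT+ and for cKO KIT+ minus WT labelled THY1+, for the 44 members. In the first 26 of 44 members lie below 0, in the second 42 of 44.

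The difference between these contrasts was tested as well. No member was called in limma, nor was any other gene (0% of all genes, with 12.8% at an unadjusted p under 0.05). Of the members, 41 of 44 were below 0 and 6 had an unadjusted p under 0.05, so a larger cKO difference in KIT+ than in THY1+ libraries was not established for any single member.

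Compared strictly as labelled, cKO minus WT called 5 members in THY1+ (29.1% of all genes), Gmnn (-1.11), Ccne2 (-1.17), Ccne1 (-0.60) and Aurka (-0.59) lower and Pola1 (0.81) higher. In KIT+ it called 2 members (25.1% of all genes), Gins4 (-0.60) and Mcm10 (-0.59), both lower. Gmnn, Ccne2 and Pola1 are the members called between the WT fractions of the Zbtb16 table, and the as-labelled comparisons set libraries of unlike Thy1 and Kit level beside each other. Gmnn, Aurka and Gins4 were also lower in cKO in the averaged effect, which does not depend on which WT label is right. Of these only Gmnn was called there.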

How the data were processed

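Transcripts were measured by RNA-seq in 24 mouse libraries, 3 in each of 8 groups, which were assigned from the GEO labels. The authors prepared stranded libraries after ribosomal RNA removal, aligned single reads to mm10 with Novoalign and generated FPKM values from them. FPKM values were deposited in a separate table for each mutant. The authors tested expression with DESeq2, which needs counts and was not used here. The alignment options that the authors list report all alignments of a read, and how such reads were counted is not given. Members with a named pseudogene (Ccnb1, Ccnb2, Pcna and Tyms) are therefore uncertain. So are Gins2, Ccne2 and Ccna2, which share 67.3%, 17.4% and 12.5% of their exon bases (GENCODE vM21) with a gene on the opposite strand.

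The fits used limma 3.58.1 under R 4.3.3, with 0.1 added to each FPKM before taking log2, which slightly understates changes. A mean of at least 0.1 FPKM was required, which left 22374 genes in the Zbtb16 and 21212 in the Sox3 table. Each table had 1 fit of 4 group means with trend and robust variance settings, and two-sided p-values were corrected over all its genes (Benjamini-Hochberg). The code was tested on simulated data. Calls required 1.5-fold or more at an adjusted p no higher than 0.05.

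The members and all gene lists were chosen with earlier results of these data known. Values in every library are given for members called, for the 3 S phase and 3 mitotic members that differed most between WT fractions, for a fixed set of common markers (Mcm2, Pcna, Ccne1, Ccne2, Mki67, Cdk1 and Ccnb1), and for others (among them Foxm1, Cdc45, Gins3, Gins4, Mcm6, Cenpe, Bub1, Cdt1, Plk1, Mad2l1, Cenpa and Mcm10) that were chosen after their values were seen. Depth was estimated from low values, 83.4% to 87.8% of which were whole multiples of the value of 1 read. Intervals around group differences are limma's 95% intervals. Same-numbered null and WT libraries of a fraction correlated in their deviations (r from 0.133 to 0.475 in THY1+ and from 0.362 to 0.520 in KIT+), so a fit with the replicate number as a block is given beside the results it changed. Alternatives changed the pseudocount, the filter, the scaling, the block and the libraries used, and removal of the fold threshold and the block with germ cell scaling were added after seeing the data. So was the difference of the cKO contrasts at like Thy1 and Kit levels.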

Additional observations from a re-analysis of the deposited data

How the results depend on the processing

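No member was called between null and WT in KIT+ libraries, or in cKO THY1+ against WT labelled KIT+, under any of the alternatives run. Of 280 counts of calls recomputed under the alternatives, 232 stayed within 1.5 times the main value and 48 did not. This compares only how many members were called, not which ones or in which direction. In cKO KIT+ against WT labelled THY1+, for example, the calls turned from lower to higher under germ cell scaling and still counted as within. With germ cell scaling, alone or with the replicate block, 6 members were called in null minus WT THY1+ (24.8% of all genes with the scaling alone). There were 8 between WT fractions (21.5% of all genes), 30 between null fractions (60.6%) and 10 between cKO fractions (41.6%). WT fractions of the Sox3 table as labelled gave 10 (20.6%), and cKO minus WT KIT+ as labelled gave 18 (56.7%). The interaction had 2 calls with this scaling (22.5% of all genes), 1 with the replicate block (12.3%) and 8 with both. With no fold threshold there were 2 calls in averaged null minus WT, 8, 9, 4 and 9 between fractions of WT, null, cKO and WT as labelled, 16 and 10 in cKO minus WT THY1+ and KIT+ as labelled, 14 in the averaged cKO effect and 15 in cKO KIT+ against WT labelled THY1+. The shares of all genes, in the same order, were 4.05%, 28.9%, 39.5%, 29.3%, 25.1%, 38.4%, 33.2%, 24.6% and 24.2%. A pseudocount of 1 gave 1 call between null fractions, and 3 and 1 in cKO minus WT THY1+ and KIT+ as labelled. Quantile normalization gave 1 call in cKO minus WT KIT+ as labelled, 0 in the averaged cKO effect and 1 in cKO KIT+ against WT labelled THY1+, and median scaling 0 in cKO minus WT KIT+ as labelled. Replicates 2 and 3 alone gave 1 call between cKO fractions, 5 between WT fractions as labelled, 0 in cKO minus WT KIT+ as labelled and 0 in the averaged cKO effect.

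Leaving out each library in turn gave 3 to 4 calls between WT fractions, 1 to 4 between null fractions (1 without null THY1+ replicate 3 or KIT+ replicate 2, 4 without KIT+ replicate 3), 1 to 3 between cKO fractions (1 without THY1+ replicate 1 or 3 or KIT+ replicate 2), 3 to 6 between WT fractions as labelled (6 without WT labelled KIT+ replicate 1), 3 to 7 and 1 to 3 in cKO minus WT THY1+ and KIT+ as labelled, 0 to 1 in the averaged cKO effect (0 without cKO THY1+ replicate 2) and 3 to 5 in cKO KIT+ against WT labelled THY1+ (5 without WT labelled THY1+ replicate 1). The cause of these moves was not tested.

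Directions turned under germ cell scaling, with the same values under that scaling and the replicate block: in the interaction Cdc45 went to 0.12, Gins3 to 0.19, Gins4 to 0.13 and Bub1b to 0.27, and Mcm10 between null fractions to 0.17. In the averaged cKO effect Mcm7 went to 0.084, Cdc6 to 0.15, Cdc45 to 0.021, Gins1 to 0.036, Rrm1 to 0.18, Ccne1 to 0.13, Ccne2 to 0.053, Cdk2 to 0.15, Bub1 to 0.082, Bub1b to 0.19, Mad2l1 to 0.0069, Cdc20 to 0.013, Birc5 to 0.088 and Ttk to 0.063. This scaling adds the same amount to every gene of a comparison.

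Same-numbered libraries deviated together less in the Sox3 table (12 of 18 pairs with r over 0.1, mean 0.147) than in the Zbtb16 table (16 of 18, mean 0.33). In the Sox3 table replicate number also went with depth. Replicates 1 had 28120000 to 32200000 reads, and replicates 2 and 3 had 10880000 to 14800000 reads. The replicate block there gave 4 calls in cKO KIT+ against WT labelled THY1+ and left Gmnn called in the averaged cKO effect.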
